A study of Mus musculus with 28 samples.

Results

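Apolipoproteins, the transporters that load lipid onto them, the enzymes and transfer proteins that remodel lipoprotein particles and a receptor that takes the particles up were followed in single cells picked from mouse retina as Müller glial cells (MGCs). The 8 genes were Apoe, Clu and Apod (apolipoproteins), Abca1 and Abcg1 (lipid exporters), Pltp and Lpl (a phospholipid transfer protein and a lipase) and Vldlr (a receptor). They were taken from a list of names that was chosen with earlier results of these data known. All 8 were among the 18194 genes that the array measured with a probe set of 1 gene symbol. For each gene the highest such probe set was used in each cell. The list called the top genes constitutive. The signals went against that word for Apoe, which was on in 15 of 27 cells, whereas Clu was on in all 27.

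The retina makes lipoprotein particles of its own behind the blood-retina barrier, and MGCs are regarded as a main source of their protein ApoE. In such a particle ApoE or clusterin carries cholesterol and phospholipid, ABCA1 and ABCG1 supply the lipid, PLTP moves phospholipid between particles, lipoprotein lipase releases fatty acids, and receptors of the LDL receptor family bind the particle. In mouse cells Apoe, Abca1, Abcg1, Lpl and Pltp are known targets of the liver X receptors, which sense oxidized cholesterol.

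Each array measured the amplified cDNA of 1 cell. There were 5 cells from adult wild-type (WT) C57/BL6 mice, which the labels give as older than 25 weeks and the study's text as a younger limit, and 5 cells each from C57/BL6 mice that lack the rhodopsin gene (Rhod-ko) at 8 and at 25 weeks of age. FVB mice carrying the Pde6b mutation rd1 gave 5 cells at postnatal day 13 (P13) and 5 arrays at 5 weeks. The labels give these 5 arrays as separate cells, but arrays A5 and A6 were so alike that they were averaged, and 4 cells are counted. Congenic FVB mice with a functional Pde6b allele (FVB.129P2-Pde6b+Tyrc-ch/AntJ) gave 3 cells at P13. No label names the animal of a cell, so the cells of a group count as 1 sample, and groups were not tested against each other. Strain, genotype and age all differ between rd1 at 5 weeks and adult WT and cannot be told apart there. By the labels, age as well as genotype also differs between Rhod-ko at 8 weeks and adult WT, and these cannot be told apart either. The study took its adult WT cells from an earlier publication of the same laboratory, so every comparison with adult WT also crosses studies. The part of this in the differences was not tested.

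Values are signals on the linear scale of the array software. A cell whose signal for a gene reached 2000 was taken to have it on. Differences are between group medians of log2 signal, with signals under 1000 set to 1000, and a difference of at least 1 on the log2 scale (2-fold) was called. Where only 1 median lies under 1000 the fold is a lower bound. Intervals for shares of cells are exact (Clopper-Pearson, 95%) and cover the counting of cells only. The rd1 arrays A5 and A6 (5 weeks) correlated at r = 0.989, against at most 0.764 for any other pair of arrays, and were averaged as cell A5/A6. This pair shows how far 2 arrays so alike may differ. Clu read 78964 and 124085 on them, a ratio of 1.57, and Apoe read 40388 and 55026, while Abca1 (6613 and 6806) and Pltp (1568 and 1567) were nearly equal.

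Not all cells carried the marker genes of MGCs alone. All 3 congenic P13 cells had 9 to 11 of 11 vascular markers on and 2 to 5 of 14 MGC markers, and rd1 P13 cells A1 and B1 had 11 and 9 vascular and 6 and 4 MGC markers. Cldn5, a tight junction gene of vessels, read 23455 to 29446 there and 3095 or less in all other cells. The other 22 cells had 9 to 14 MGC markers and 0 to 3 vascular markers on. Below, cells with vascular markers are the 5 with 9 to 11 of them on, and cells without them are the other 22. Of 11 rod markers 8 were on in cell 7 and 7 in cell 8 of Rhod-ko at 8 weeks, and cell 7 also had 6 of 14 microglia markers, with Csf1r at 118151. At P13 all 8 cells had 5 to 9 rod markers on. The number of genes on in a cell was 1847 to 3208, and the 100 genes of the highest signal took 7.21% to 35.7% of the summed signal, with 22.2% to 35.7% in the Rhod-ko cells of 8 weeks.

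Promoter sequence was matched for 5 of the 8 genes, with 8 start sites in all, from RefSeq (GRCm38.p6). Clu, Abcg1 and Lpl were not matched. The promoters of Abca1 (chr4:53159846-53160145, minus strand) and of the first Apoe start (chr7:19699139-19699438, minus strand) are shown because these liver X receptor targets had differing patterns over the groups. The capitals mark the closest match in Abca1, on the opposite strand, to a direct repeat of AGGTCA with 4 bases between, the element that liver X receptors bind.
Abca1: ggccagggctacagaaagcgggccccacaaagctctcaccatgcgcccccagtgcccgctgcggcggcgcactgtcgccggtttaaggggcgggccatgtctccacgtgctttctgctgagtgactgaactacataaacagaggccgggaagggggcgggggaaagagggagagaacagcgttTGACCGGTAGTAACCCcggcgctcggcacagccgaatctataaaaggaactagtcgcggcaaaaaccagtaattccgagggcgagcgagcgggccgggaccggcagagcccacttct
Apoe: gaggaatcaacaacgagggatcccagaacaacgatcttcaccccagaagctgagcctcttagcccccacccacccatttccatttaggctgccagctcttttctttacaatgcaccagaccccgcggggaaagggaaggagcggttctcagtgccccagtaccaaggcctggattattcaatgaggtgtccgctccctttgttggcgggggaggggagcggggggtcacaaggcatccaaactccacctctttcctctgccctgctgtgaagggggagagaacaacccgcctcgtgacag
The marked stretch begins 67 bases before the Abca1 start and has 3 mismatches over the 12 letters of the repeat. A match with at most 3 mismatches was found on either strand in 21.9% of all 32851 promoters of this length. The best match in the Apoe promoters had 4 mismatches, and in those of Pltp, Apod and Vldlr 5. A match of this kind is a run of letters and does not show a bound site.

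Apoe, the main lipid carrier of glia, was on in every cell of 3 groups and in almost none of the other 3. In adult WT its signal was 71827 in cell MG1, 42877 in MG16, 27794 in MG22, 66187 in MG15 and 78342 in MG3. In Rhod-ko at 8 weeks it was 196691 in cell 1, 24322 in cell 7, 17427 in cell 3, 11246 in cell 8 and 9543 in cell 2, so that cell 1 stood above all adult WT cells and the other 4 below all of them. At 25 weeks it read 2033 in A3, 1702 in A1, 236 in A5, 159 in A2 and 20.1 in A4, and A3 alone of the 5 was on (interval 0.505% to 71.6%). Every one of these 5 cells lay below every adult WT cell.

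In the FVB mice the order in age was the other way round. At P13 Apoe read 184, 46.1 and 10.2 in the congenic cells A3, A4 and A5, and 318 in A4, 289 in B4, 227 in B3, 80.3 in B1 and 17.4 in A1 of rd1. None of these 8 cells was on, with or without the 5 that carried vascular markers, and the 3 rd1 cells without those markers read 227 to 318. At 5 weeks the rd1 cells read 73372 in B1, 53676 in A8, 47707 in A5/A6 and 6859 in A1. All 4 were on, and all lay above every P13 cell.

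Against adult WT the Apoe median was lower by 1.93 on the log2 scale (3.80-fold) in Rhod-ko at 8 weeks, with overlapping cells, and at least 66.2-fold lower at 25 weeks, with no overlap. For rd1 at 5 weeks the log2 difference was -0.39, within the call limit. Between the ages the difference was -4.12 in Rhod-ko (25 minus 8 weeks) and 5.66 in rd1 (5 weeks minus P13), neither with overlap between cells. Leaving out any 1 cell, the Rhod-ko differences from adult WT ranged from -2.24 to -1.61 at 8 weeks and from -6.11 to -5.67 at 25 weeks.

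The 14 cells of adult WT, 8-week Rhod-ko and 5-week rd1 thus read 6859 to 196691 for Apoe and the 13 cells of the other groups 10.2 to 2033. Only 3 of the 18194 genes were higher in every one of those 14 cells than in all 13 others, namely Apoe, Kcne3 and Pou3f1, and only Apoe was on in all 14. No gene was lower in all 14. These sets of groups were put together after the values were seen, so the count describes the data and tests nothing. Array measures moved with the same split in part. The number of genes on was 1847 to 3208 (median 2192) in the 14 cells and 2670 to 3123 (median 2945) in the 13, and the share of the 100 highest genes was 7.21% to 35.7% and 8.64% to 10.5%. Their part in the Apoe pattern was not tested. The Rhod-ko cells of 25 weeks, where Apoe was low, had 12 or 13 of 14 MGC markers on. Apoe had only 1 probe set, so no second reading of it was at hand. The genes most like it over all cells were Dkk3 (rho 0.87), a secreted glycoprotein and MGC marker, and Abca8a (0.82), a lipid transporter. Part of this order lies among signals under 1000, as Apoe reached 1000 in 16 of 27 cells.

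**Figure D1:**
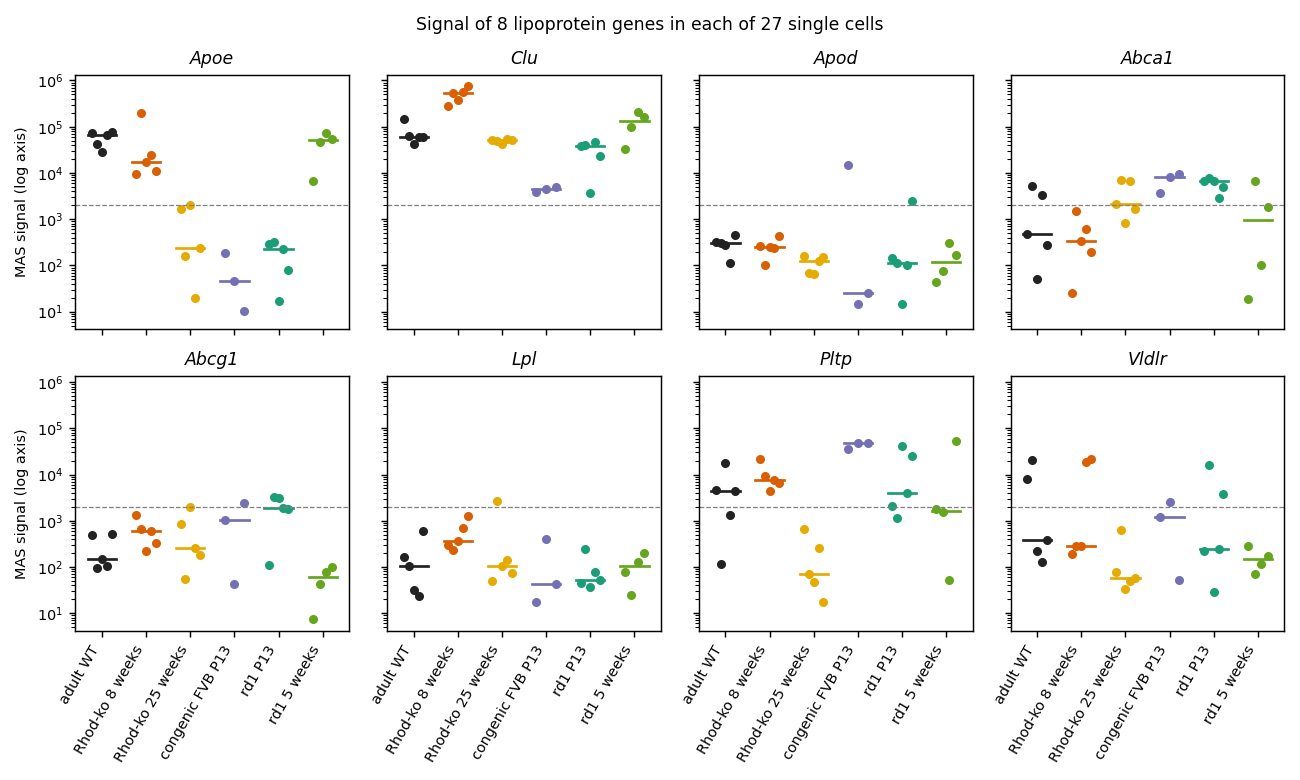
Signal of each gene (vertical log axis) in every cell, by group; points are cells, short lines are group medians and the dashed line is the signal of 2000 at which a gene was counted as on. Clu lies above the line in all 27 cells, Apoe in 15, Pltp in 16 and Abca1 in 14, whereas Apod, Abcg1 and Lpl seldom reach it.

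Clu, the gene of the secreted chaperone and apolipoprotein clusterin, was on in all 27 cells, as were 66 of the 18194 genes (0.363%). In adult WT it read 146783 in MG1, 63209 in MG16, 59537 in MG3, 58543 in MG15 and 42981 in MG22. In Rhod-ko at 8 weeks it read 756546 in cell 8, 567346 in cell 7, 549293 in cell 1, 374970 in cell 3 and 287791 in cell 2. Every one of these lay above every adult WT cell, and Clu had the highest signal of all genes on all 5 arrays, a rank that also depends on how well its probes bind. At 25 weeks the 5 cells lay close together, at 55308 in A4, 52398 in A1, 50890 in A5, 50346 in A2 and 43062 in A3, inside the adult WT range.

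At P13 the congenic cells had the lowest Clu of any group, 5035 in A5, 4489 in A4 and 3936 in A3. The rd1 cells of that age read 46152 in B3, 41210 in A4, 38018 in B4, 23076 in B1 and 3779 in A1. The 5 cells with vascular markers read 3779 to 23076 and the other 22 cells 32359 to 756546, with no overlap. At 5 weeks rd1 Clu was 212112 in B1, 165200 in A8, 100598 in A5/A6 and 32359 in A1, and it was the highest gene on all 4 cells' arrays.

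The Clu median was 9.23-fold higher than adult WT in Rhod-ko at 8 weeks (log2 difference 3.21). It was 2.17-fold higher in rd1 at 5 weeks (1.11), with overlap, and this call was lost (0.76) without cell B1 or without cell A8. In Rhod-ko at 25 weeks the difference was -0.23, and its sign depended on the scaling, at -1.31 with the 90th percentile of all arrays made equal and 1.17 after quantile normalization. Within Rhod-ko, the 25-week cells lay 10.8-fold below the 8-week cells, with no overlap. For rd1 against congenic FVB at P13 the difference was 3.08 (8.47-fold), and it was 3.20 without rd1 cells A1 and B1 and 1.06 with those 2 cells alone. Against adult WT the 3 remaining rd1 P13 cells were lower by 0.53 on the log2 scale.

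Over the 27 cells the order of Clu was most like that of Gapdh, a glycolytic enzyme often used as a reference gene. The Spearman rho was 0.97, the highest of 5226 genes on in at least 5 cells, followed by Cnn3 (0.91), an actin-binding calponin. The points share their group and the scale of their array, so this is a description. Gapdh read 128079 to 240885 in Rhod-ko at 8 weeks, 52853 to 104679 in adult WT, 36874 to 42915 in Rhod-ko at 25 weeks and 20486 to 35814 at P13. Relative to Gapdh the log2 difference of Clu from adult WT was 1.63 in Rhod-ko at 8 weeks, 0.66 at 25 weeks and 0.89 in rd1 at 5 weeks. This division was chosen after the data were seen. It takes out whatever Clu and Gapdh share, so it cannot tell array scale from expression. The Clu difference in Rhod-ko at 8 weeks was 1.41 after quantile normalization. Those 8-week arrays also had ratios of 3' to 5' Gapdh probes of 3.95 to 18.2, against 0.554 to 4.06 in adult WT. The part of these in the difference was not tested.

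**Figure D2:**
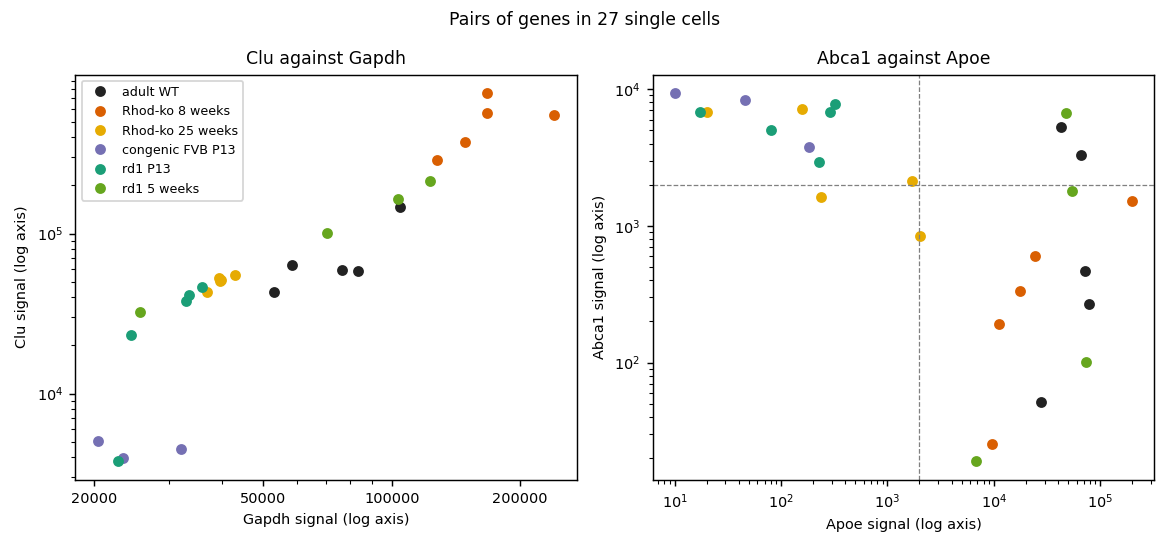
Left, Clu signal against Gapdh signal, and right, Abca1 signal against Apoe signal, both on log axes with 1 point per cell coloured by group; dashed lines on the right mark a signal of 2000. Clu and Gapdh rank the cells alike (rho 0.97), with the congenic cells and rd1 P13 cell A1 below the others, and 11 of the 13 cells of the 3 groups with low Apoe lie above the line for Abca1.

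Clu had 4 probe sets, which did not read alike in every cell. The 3 sets with the suffix x_at, whose probes may bind related transcripts, were on in all 27 cells. The set with the suffix a_at was on in 21 cells and read 20.1 and 16.9 in adult WT cells MG1 and MG16, where the highest x_at set read 146783 and 63209. It also read 1260 to 1800 in the congenic cells and 1977 in rd1 P13 cell A1. By this set alone the differences were larger, 5.12 for Rhod-ko at 8 weeks, 3.14 at 25 weeks, 4.30 for rd1 at 5 weeks and 4.16 at P13. The count of 27 cells on therefore rests on the x_at sets.

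Abca1, which moves cholesterol and phospholipid out of the cell onto lipid-poor apolipoproteins, was on in 14 of 27 cells. It was on in all 8 cells of P13, at 3748, 8388 and 9387 in congenic cells A3, A4 and A5 and at 7833 in A4, 6818 in B4, 6804 in A1, 4998 in B1 and 2926 in B3 of rd1. The cells with and without vascular markers overlapped here (3748 to 9387 and 2926 to 7833). In adult WT it read 5290 in MG16 and 3276 in MG15 but 469, 270 and 51.3 in MG1, MG3 and MG22. In Rhod-ko it reached at most 1530 at 8 weeks, in cell 1, with 25.4 to 605 in the others. None of the 5 cells was on, which leaves a share of up to 52.2%.

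At 25 weeks Abca1 read 7153 in A2, 6809 in A4, 2113 in A1, 1635 in A5 and 847 in A3, with 3 of 5 on. In rd1 at 5 weeks it was on in A5/A6 alone, at 6710, with 1807 in A8, 101 in B1 and 19.0 in A1. The 25-week median was at least 2.11-fold above adult WT (log2 difference 1.08), with overlapping cells. This call was lost without Rhod-ko cell A2 or A4 (0.89 each) and without adult WT cell MG1, MG22 or MG3 (0.22 each), and also after quantile normalization (0.26) or scaling to the 90th percentile (0.17). Of the 14 cells with high Apoe 3 had Abca1 on, and of the 13 others 11. Over the 27 cells the rho of Apoe and Abca1 was -0.61, in points that share their group. Only 1 of the 3 Abca1 probe sets was on in any cell. The genes most like Abca1 over the cells were Api5 (rho 0.75) and Rab1a (0.73). Abca1 reached 1000 in 17 of 27 cells, so part of this order also lies among signals under 1000.

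Abcg1, which exports cholesterol to particles that already hold lipid, was on in 3 of 27 cells (11.1%, interval 2.35% to 29.2%). These were congenic cell A5 at 2469 and rd1 P13 cells A4 and A1 at 3294 and 3111. In the other rd1 P13 cells it read 1934, 1769 and 111. Outside P13 the highest reading was 1992 in Rhod-ko 25 weeks cell A3 and in rd1 at 5 weeks all 4 cells read 7.5 to 97.7. Against congenic FVB the rd1 P13 median differed by 0.91, just inside the call limit. Snrk (rho 0.69) and Cldn5 (0.69) were its most alike genes, from cells in which Abcg1 mostly lay under 1000.

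Pltp, whose protein transfers phospholipid between lipoproteins, was high in each of the 5 cells with 9 or more vascular markers on. It read 48389, 48346 and 35791 in congenic cells A4, A5 and A3, and 40995 and 25730 in rd1 P13 cells A1 and B1. The rd1 P13 cells with 1 to 3 such markers on read 4014 in B3, 2052 in B4 and 1163 in A4, so the 2 sets of P13 cells did not overlap. Among the cells of the other 4 groups the highest was rd1 5 weeks cell A8 at 52609, a cell with 0 of 11 vascular markers on. The other 3 cells of that group read 1754, 1568 and 53.5.

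In adult WT Pltp read 18013 in MG22, 4720 in MG1, 4412 in MG3, 1329 in MG15 and 115 in MG16. All 5 Rhod-ko cells of 8 weeks had it on, at 22031 in cell 2, 9338 in cell 1, 7496 in cell 7, 6475 in cell 8 and 4407 in cell 3, and at 25 weeks in none, at 17.3 to 665. The 2 ages of Rhod-ko did not overlap (log2 difference -2.91, 25 minus 8 weeks, a fold of at least 7.50). Against adult WT the 25-week median was at least 4.41-fold lower, with overlap through MG16.

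For rd1 against congenic FVB at P13 the Pltp median was lower by 3.59 on the log2 scale. It was -4.56 without rd1 cells A1 and B1 and -0.57, inside the call limit, with those cells alone. The difference was -2.25 without rd1 cell B4 or A4. In rd1 at 5 weeks the median was 2.66-fold below adult WT (-1.41), and this call was lost without adult WT cell MG1, MG22 (-0.55 each) or MG3 (-0.59), and relative to Gapdh (-0.21). In Rhod-ko at 8 weeks the difference was 0.76, and it passed the limit without MG1, MG22 (1.63 each) or MG3 (1.58).

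The Pltp probe sets disagreed. The set with the suffix s_at, whose probes may bind more than 1 transcript, was on in 16 cells, and the other in 6. The 6 were the 5 cells with vascular markers, at 9195 to 31859, and rd1 5 weeks cell A8 at 20368. In every adult WT and Rhod-ko cell the second set read 1947 or less, and with this set both medians lay under 1000 in all 3 comparisons with adult WT. The genes most like Pltp over all cells were Abcb1a (rho 0.81), an efflux pump of brain and retinal vessels, and Ets1 (0.80), a transcription factor of endothelial cells and lymphocytes.

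**Figure D3:**
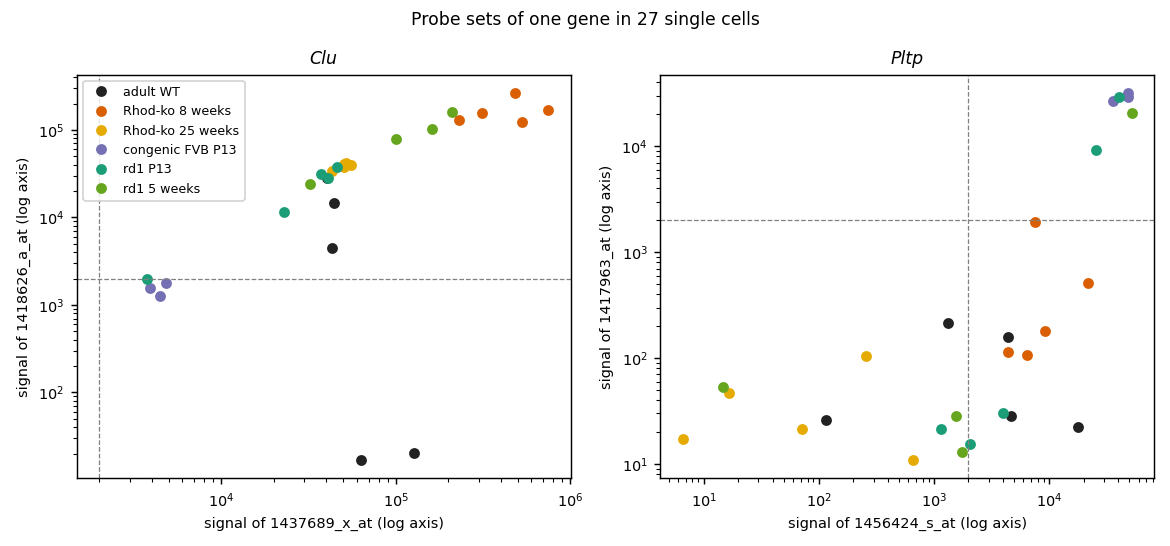
Signals of 2 probe sets of Clu (left) and of Pltp (right) on log axes, 1 point per cell coloured by group; dashed lines mark a signal of 2000. For Clu the sets rank most cells alike, with adult WT cells MG1 and MG16 at the bottom (20.1 and 16.9 by the a_at set, vertical axis). For Pltp only 6 cells lie above the line by the set on the vertical axis.

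Vldlr, a receptor for ApoE-rich particles and for reelin, was off in most cells and high in a few. It read 20346 and 7978 in adult WT cells MG16 and MG1, against 128 to 388 in the other 3, and 21987 and 18750 in Rhod-ko 8 weeks cells 8 and 7, against 190 to 291 in the other 3. At P13 it read 15967 and 3825 in rd1 cells A4 and B1 and 2549 in congenic cell A4. No cell was on in Rhod-ko at 25 weeks (32.7 to 621) or in rd1 at 5 weeks (70.8 to 278). In every group with a cell on, the cells were thus split and no pair of groups was separated.

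The medians of Vldlr lay under 1000 in all groups but congenic FVB, where it was 1206, and its differences turned with the cells left in. Against adult WT the difference of Rhod-ko at 8 weeks was 0.00 with all cells, 2.11 without cell 1, 2 or 3, and -1.50 without adult WT cell MG22, MG15 or MG3. The last 3 cells moved 25-week Rhod-ko and 5-week rd1 to -1.50 likewise. Cells 7 and 8 of Rhod-ko at 8 weeks were also those with 8 and 7 rod markers on, while adult WT cells MG16 and MG1 had 0 and 1, and the part of rod transcripts was not tested. Of the 6 Vldlr probe sets 1, with the suffix x_at, was the highest in 11 cells and on in 6. The genes most like Vldlr were Lancl2 (rho 0.75) and Pcare (0.72), a photoreceptor cilium gene. Vldlr reached 1000 in only 8 of 27 cells, so this order is mostly one of signals under 1000.

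Lpl, which frees fatty acids from triglyceride, was on in 1 of 27 cells (3.70%, interval 0.0937% to 19.0%), Rhod-ko 25 weeks cell A2 at 2618. The next highest was 1248 in Rhod-ko 8 weeks cell 8, and all other cells read 713 or less. Apod, a lipocalin that carries small lipids, was on in 2 cells, congenic A3 at 14782 and rd1 P13 B1 at 2468, and both carried vascular markers. The other 25 cells read 15.0 to 464. For most cells the order of both genes is therefore an order of signals counted as off, which bears on their most alike genes, Pebp1 (rho 0.70) and Tesc (0.66) for Lpl and C1qb (0.67) and Dut (0.62) for Apod.

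Over the 8 genes, few differences passed the limit. In Rhod-ko at 8 weeks Clu was called higher and Apoe lower, where 6.17% of all genes were called higher and 5.12% lower. Of the 8 genes Clu alone was called with no overlap between cells, and 1.47% of all genes were. At 25 weeks Abca1 was called higher (7.9% of all genes) and Apoe and Pltp lower (3.7%), and Apoe was called with no overlap (0.704%). In rd1 at 5 weeks Clu was called higher (6.35%) and Pltp lower (4.25%), neither without overlap (0.693%). At P13 Clu was called higher (4.79%) and Pltp lower (6.41%) in rd1 than in congenic FVB, neither without overlap (1.45%). With 8 genes 1 call in a direction is the smallest count above 0, so these counts describe the named genes and not the list.

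The median difference was 0.00 over the 8 genes and over all genes in each comparison. Both medians lay under 1000 for 5 of the 8 genes in Rhod-ko at 8 weeks, for 4 at 25 weeks and in rd1 at 5 weeks, and for 3 at P13. The same held for 80.2%, 79.2%, 77.7% and 72.6% of all genes. The 3 comparisons with adult WT share those 5 cells. With Clu and Apoe set side by side against adult WT, the log2 differences were 3.21 and -1.93 in 8-week Rhod-ko, -0.23 and -6.05 in 25-week Rhod-ko and 1.11 and -0.39 in 5-week rd1. Over all 27 cells the rho of Apoe and Clu was 0.72, in points that share their group.

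**Figure D4:**
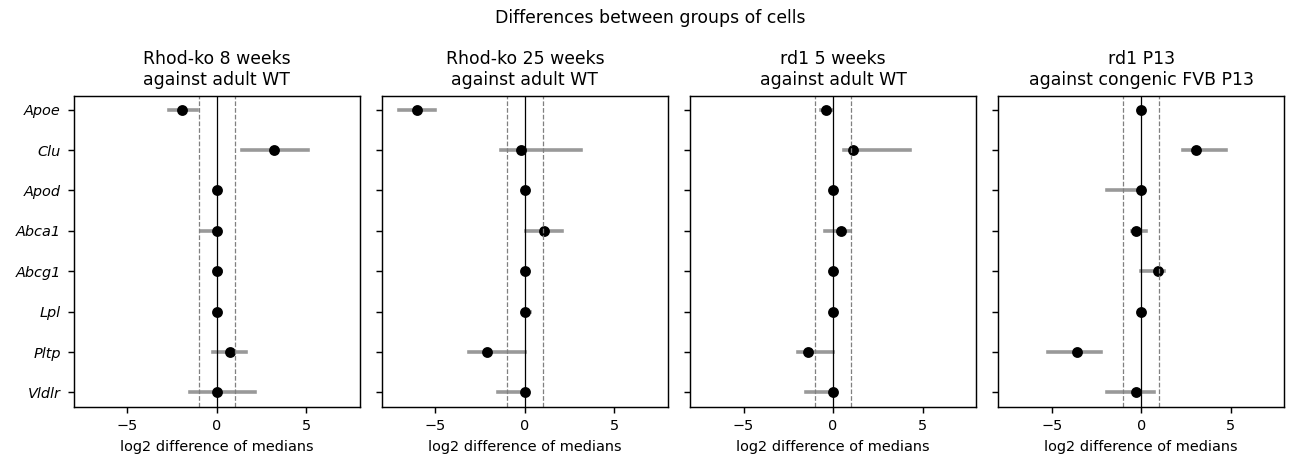
Difference of group medians on the log2 scale (horizontal axis) for the 8 genes in the 4 comparisons; black points are the values reported, grey bars run from the lowest to the highest value over the other settings that keep the same control group (left-out cells included, rd1 cells A1 and B1 alone excluded), and dashed lines mark the 2-fold limit. The bars of Apoe in both Rhod-ko groups and of Clu in Rhod-ko at 8 weeks and rd1 at P13 stay on 1 side of the limit. At P13 every setting in the Clu bar uses the 3 congenic cells, which had 9 to 11 vascular markers on, so the bar does not cover that mismatch. With rd1 cells A1 and B1 alone the Clu difference was 1.06, and without them against adult WT it was -0.53.

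Other genes of lipid transport were taken from a list of 78, of which 70 were measured. None was on in all cells, and 23 were on in none. In Rhod-ko 11 of the 70 were called higher and 1 lower at both ages, against adult WT, beside 6.17% and 5.12% of all genes at 8 weeks and 7.9% and 3.7% at 25 weeks. In rd1 at 5 weeks 7 were called higher and 3 lower (6.35% and 4.25% of all genes), and at P13 4 higher and 10 lower than in congenic FVB (4.79% and 6.41%). At P13 all 3 congenic and 2 of 5 rd1 cells had 9 or more vascular markers on, and the part of this in the differences was not tested. The median difference of the 70 was 0.00 each time, as it was for all genes.

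Among 15 other apolipoproteins and lipid carriers, 2 were called higher in Rhod-ko at 8 weeks and in rd1 at 5 weeks (6.17% and 6.35% of all genes). They were Apoc1 and Ptgds in both. Apoc1, a small exchangeable apolipoprotein whose gene lies beside Apoe, was on in 6 cells, 3 of Rhod-ko at 8 weeks (up to 154272), 2 of rd1 at 5 weeks (up to 19298) and 1 of rd1 at P13 (7482). In adult WT no reading passed 209, in 25-week Rhod-ko 109 and in congenic FVB 71.3. The log2 difference of Apoc1 from adult WT was 4.35 in Rhod-ko at 8 weeks, where the lowest cell read 343, and 2.13 in rd1 at 5 weeks, where the cells overlapped. Ptgds, a prostaglandin synthase that also binds small lipids, was on in all 5 Rhod-ko cells of 8 weeks (18025 to 92188), in 3 of 4 of rd1 at 5 weeks and in 1 of 5 of adult WT (36312), with differences of 5.02 and 2.52.

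Of 8 measured lipid exporters other than Abca1 and Abcg1, 2 were called higher in Rhod-ko at 25 weeks, Abca5 (1.62) and Abca8b (1.43). Of all genes 7.9% were. In rd1 at 5 weeks 1 was called higher, beside 6.35% of all genes. Abca3, a phospholipid transporter of lamellar bodies in the lung, was past the limit in 2 comparisons, at 1.82 in rd1 at 5 weeks and -1.46 in rd1 at P13. Abca8a, the transporter that followed Apoe, was on in every adult WT, Rhod-ko and rd1 5 weeks cell (16210 to 74167) and in no congenic cell (5.4 to 264), and 3 of 5 rd1 P13 cells had it on. Unlike Apoe it stayed high in Rhod-ko at 25 weeks, at 24553 to 33508. Its difference at P13 was 3.54, between groups in which all 3 congenic and 2 rd1 cells carried vascular markers.

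Of 10 measured lipases and their partners, 4 were called lower at P13 in rd1 (against congenic FVB), as were 6.41% of all genes. They were Pnpla2, which starts the breakdown of stored triglyceride (-1.88), the lysosomal lipase gene Lipa (-1.02), the lipase inhibitor gene Angptl4 (-1.48) and Sdc1 (-1.04), a heparan sulfate proteoglycan that binds lipoproteins. Of the rd1 cells, A1 and B1, with vascular markers, had Pnpla2 (3808 and 14477) and Lipa (3135 and 5896) on. Lipa was also on in rd1 cell B3 (2394), which had 1 vascular marker on. Among the rd1 cells Angptl4 was on in A1 alone (10525) and Sdc1 in B1 alone (9436). Pnpla2 was also higher than adult WT in Rhod-ko at both ages, by 1.54 and 1.89, and was on in all 5 cells of 25 weeks (2503 to 4587) and in 1 adult WT cell (12425).

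Of 16 measured receptors and partners, 2 passed the limit in all 4 comparisons. The share of all genes that did so was not computed, and the comparisons with adult WT share their control cells. Lrp1, the large receptor that clears ApoE particles, was off in all 5 adult WT cells (140 to 395) and all 3 congenic cells (61.1 to 156). It was on in 3 of 5 cells of Rhod-ko at 8 weeks (up to 37831), in all 5 at 25 weeks (2858 to 6119), in 3 of 5 of rd1 at P13 (up to 5299) and in all 4 at 5 weeks (2520 to 5392). Its log2 differences were 3.12, 2.23, 1.51 and 1.85 in that order. The cells of 25-week Rhod-ko and 5-week rd1 all lay above those of adult WT. Of all genes 0.704% and 0.693% were called with no overlap in these comparisons. At P13 the rd1 cells with Lrp1 on were B4 (5299), B3 (4003) and A4 (2853), which had 1 to 3 vascular markers on. Cells A1 and B1, with 11 and 9 vascular markers on, read 17.7 and 56.9. The part of this in the P13 difference was not tested.

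Dab1, the adaptor through which the reelin receptors signal, was lower than adult WT in Rhod-ko at 8 and 25 weeks (-3.13 and -4.29) and in rd1 at 5 weeks (-3.63), and higher in rd1 at P13 than in congenic FVB (1.62). Adult WT itself ran from 150 to 29862, with 3 of 5 cells on, and overlapped all 3 groups. Lrpap1, a chaperone of these receptors, was higher in Rhod-ko at both ages (3.03 and 2.13). The HDL receptor gene Scarb1 was higher in 8-week Rhod-ko (1.80) and 5-week rd1 (2.94), and the lysosomal protein gene Scarb2 in 25-week Rhod-ko (2.05) and 5-week rd1 (1.41).

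Of 21 measured genes of sterol sensing and lipid handling, 4 were called higher in Rhod-ko at each age (6.17% and 7.9% of all genes), 1 higher and 1 lower in rd1 at 5 weeks (6.35% and 4.25%) and 3 lower in rd1 at P13 (6.41%), where the groups differed in vascular markers. Npc2, which hands cholesterol out of the lysosome, read 28347 to 97253 in Rhod-ko at 8 weeks, 616 to 20994 at 25 weeks and 333 to 28514 in adult WT, with differences of 2.30 and 1.14. In rd1 at 5 weeks it was lower by 2.15, with 1 of 4 cells on. Plin2, a coat protein of lipid droplets, was on in 4 of 5 Rhod-ko cells of 8 weeks (up to 17830) and in no adult WT cell (117 or less), a difference of 3.76, and was lower in rd1 at P13 (-2.11). Rxra, a partner of the liver X receptors, was higher in Rhod-ko at 8 and 25 weeks (3.01 and 1.21). Rxrb, another, was higher at 25 weeks (1.08) and lower in rd1 at P13 (-1.05).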

How the data were processed

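The study's authors lysed single picked cells, reverse transcribed RNA from an oligo dT primer, amplified cDNA by 35 cycles of PCR and hybridized it to Affymetrix Mouse Genome 430 2.0 arrays. The deposited values are signal intensities that the authors computed with MAS5, scaled to a trimmed mean of 500. Of 45101 probe sets 34958 carry 1 gene symbol and were used, 932 carry several and 9211 none. The highest set per gene and cell was taken, after the study's methods.

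Signals were floored at 1000 for differences and at 100 for rank correlations. No test was run because each group is 1 sample of cells with no animal named. The script was tested on simulated data. Those signals lay above the floor, with a spread between cells narrower than that of Pltp in rd1. It was also narrower than that of Apoe and Clu in adult WT (standard deviations of 0.63 and 0.66 on the log2 scale). The test thus does not cover medians under 1000 or such spreads. The members and lists were chosen with earlier results of these data known. Named genes were the 8 members, the 2 genes of highest rho to each, and per role those past 2-fold in most comparisons (up to 3, more with ties), with Sorl1, Dab2 and the genes sharing the Apoe split added after values were seen. Alternatives covered scaling, floor, on limit, probe set choice, group mean, control group and left-out cells. Values were computed in Python 3.11.15 with NumPy 2.4.6 and pandas 2.3.3, rank correlations and intervals with SciPy 1.17.1, and plots with matplotlib 3.10.9. The number of arrays limits the precision.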

Additional observations from a re-analysis of the deposited data

Results flagged for a closer look

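Readings that stood far from the rest of their group, with signals under 1000 set to 1000, are given here. For Apod, Abca1, Abcg1 and Lpl all other cells of the group lay under 1000, so that any reading above it stands apart by construction. Clu in rd1 P13 cell A1 was 3779, against 23076 to 46152 in the other 4 cells, and that cell had 11 of 11 vascular markers on. Apod in rd1 P13 cell B1 was 2468, against 15.0 to 145. Pltp in rd1 5 weeks cell A8 was 52609, against 53.5 to 1754. In Rhod-ko at 8 weeks Abca1 read 1530 in cell 1 (25.4 to 605 in the others), Abcg1 1333 in cell 2 (224 to 664) and Lpl 1248 in cell 8 (232 to 713). In Rhod-ko at 25 weeks Abcg1 read 1992 in cell A3 (56.0 to 854) and Lpl 2618 in cell A2 (49.1 to 144). Of these readings Clu, Apod, Pltp and the 25-week Lpl were at or above the signal counted as on.

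Clu moved apart at the ages of Rhod-ko. Every 8-week cell lay above the adult WT median (difference of medians 3.21 on the log2 scale) and every 25-week cell below it (-0.23). The difference between the ages was not tested. The 25-week median lay above adult WT after quantile normalization (1.17), relative to Gapdh (0.66) and by the a_at probe set of Clu (3.14). With the 90th percentile of all arrays made equal it lay further below (-1.31).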

How the results depend on the processing

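No paired analysis was possible because groups share cell names such as A1 and A4 but no label ties these to an animal, and no test was run. Of 600 differences under other settings 556 moved by no more than the spread between cells, 42 by more and 2 turned. Many of the 556 belong to genes with both medians under 1000, where the difference is 0 and can seldom move. The count therefore says little about how stable the called differences are. The Pltp difference for rd1 at 5 weeks was 0.0019 with group means, and that of Clu for rd1 at P13 was -0.53 against adult WT without cells A1 and B1. The number of the 8 genes past 2-fold, 2 for rd1 at 5 weeks, was 0 with signals divided by Gapdh, 1 with other probe sets of Clu and Pltp, 1 with group means (Vldlr) and 4 with congenic FVB as control. Leaving out 1 cell it ranged from 1 to 3 there, from 2 to 4 for Rhod-ko at 8 and 25 weeks and from 2 to 3 at P13. It was 4 for Rhod-ko at 8 weeks without adult WT cell MG22 or MG3. Scaling to Gapdh, the other probe sets of Clu and Pltp, and the P13 comparison with cells A1 and B1 alone were chosen after seeing the data.

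For Rhod-ko the Apoe difference lay between -2.65 and -1.13 at 8 weeks and between -7.05 and -5.05 at 25 weeks, and that of Clu at 8 weeks from 1.41 to 5.12, past 2-fold throughout. Abca1 at 25 weeks lost its call in 9 of 18 settings. With 1 array per cell, differences between cells and between arrays cannot be told apart, and signals under 1000 carry no order.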

Other observations

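Sorl1, a sorting receptor of the lipoprotein receptor family, and Dab2, an endocytic adaptor for the LDL receptor family, were singled out after their values were seen. Sorl1 was on in 22 of 27 cells, at 2358 to 16797 in adult WT, 4317 to 27700 and 8507 to 20228 in Rhod-ko at 8 and 25 weeks and 11574 to 31811 in rd1 at 5 weeks, so that it stayed high where Apoe was low at 25 weeks. It was off in all 3 congenic cells (25.6 to 74.2) and on in 3 of 5 rd1 P13 cells, a log2 difference of 3.20 at P13. Dab2 was on in all 3 congenic cells (5632 to 8034) and in rd1 P13 cells A1 (4259) and B1 (3982), a difference of -2.61. These 5 cells are those with 9 or more of 11 vascular markers on, and the 3 rd1 P13 cells with Sorl1 on are the other 3. The adult groups had Dab2 on in a single cell, of adult WT (2785).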
